A study of Mus musculus with 28 samples.

Results

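The comparison is of ovaries of C57BL/6 mice at 16 months under calorie restriction (CR) or fed ad libitum (AL). Its members are the arrays whose titles give ovary at 16 months, 4 of the 28 arrays of the series, with 2 CR and 2 AL ovaries from separate mice. Calorie restriction lowers food intake without withholding nutrients, and in rodents it shifts the body from storing to using fat, slows ovarian cycling and can delay the loss of follicles. An ovary holds oocytes in follicles of granulosa and theca cells, corpora lutea that form after ovulation, and a stroma with vessels and immune cells, while fat pads lie against it. Which transcripts a restricted diet moves in the ageing ovary is the question the comparison addresses.

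All mice were fed ad libitum up to 14 weeks of age, after which the CR animals were given a reduced ration and the AL animals stayed on free access to food. On each array whole-ovary RNA of 1 mouse, labelled with Cy3, was hybridised beside a Cy5-labelled pool of RNA from 11 mouse cell lines, so each value is a log2 ratio of ovary to reference RNA. The first CR and the first AL ovary were read on array version 2.1 and the second of each diet on version 2.2, and values are given below in the order first, second. The titles give 16 months for all 4 animals, although the age field of the second AL animal says 15 months. No genetic modification separates the groups, and the animals of the remaining ages (1, 6 and 24 months) serve to estimate the error and to set the CR effect beside that of other ages; those of 6 and 24 months also enter the shift per probe that brings version 2.1 to the level of version 2.2. The same shift uses the 16-month pairs, so how close the 2 animals of a diet lie is partly made by it, while differences within a version are untouched. For some probes, among them those of Dsel, Ifi44, Rnu3b4, Oas1a, Tnfrsf17 and Dnaja1, the 16-month pairs alone set the shift.

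Defining ovarian markers were present in all 4 samples. Inha, a subunit of the hormone inhibin made by granulosa cells, stood at log2 5.06 and 4.16 in the CR ovaries and 5.30 and 5.08 in the AL ovaries, and Foxl2, a granulosa cell transcription factor, at 4.58, 4.02, 4.71 and 4.86. Hsd3b1, a steroid-synthesis enzyme, ranged from 4.11 to 4.57. Among markers of pancreatic acinar cells, which can be carried over in dissection, the median level was between 0.31 and 0.44. Amh and Fshr lay near 0 in all 4 ovaries, so these granulosa markers did not stand apart from the reference here. A ratio near 0 does not show that a transcript was absent. One array stood apart in its width: the median absolute log2 ratio was 0.145 in the first AL ovary and 0.271 to 0.317 in the other 3, and the SD over probes was 0.677 there against 0.755 to 0.796. Genes far above the reference were lower in that ovary, with a mean of 2.30 over 517 genes against 2.53 to 2.84. Over 347 genes far below it the mean was -2.59 against -2.97 to -2.91, but with the scanner's processed signals it was -3.24 against -3.27 to -3.17, so the low side was narrower with the processing used here and not with those signals. Results were also computed with all arrays scaled to 1 SD or to 1 median absolute value, both chosen after seeing the data. The probe signals limit what could be seen: the median Cy3 signal over local background was 1.35 and 1.74 in the CR arrays and 1.35 and 1.33 in the AL arrays.

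Across 35304 genes (14547 with a name), limma called 3 genes at an adjusted p of at most 0.1 with at least a 1.5-fold difference (0.0085%). All 3 rose under CR, and 0 fell (limma), beside 3849 genes at an unadjusted p under 0.05, of which 1703 were higher (4.82%) and 2146 lower (6.08%). With 1.5-fold added to that unadjusted threshold, 243 genes were higher (0.688%) and 177 lower (0.501%). Both CR ovaries lay above both AL ovaries for 8257 of 35177 genes measured on all 4 arrays (23.5%) and below both for 9136 (26%). The median difference over all genes was -0.01 (log2), and 48.2% of genes were higher under CR. The number of calls moved with single ovaries: it was 302 (146 higher and 156 lower) without the second AL ovary and 32 (2 higher and 30 lower) without the first. It was 0 without the first CR ovary or without either AL ovary of 1 month, and 2 without the second CR ovary. With array version as a term of the fit, which spends a degree of freedom that the shift between versions does not count, limma called 0 genes and 2959 were at an unadjusted p under 0.05.

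Dsel, which encodes a dermatan sulfate epimerase-like protein, stood at 2.27 and 2.24 in the CR ovaries and 0.79 and 0.81 in the AL ovaries. The 2 diets did not overlap, and the difference was 1.48 within version 2.1 and 1.43 within version 2.2. Dsel rose by 1.46 ± 0.16 (SE) under CR (adjusted p = 0.0745, limma). Sfpq, an RNA-binding protein of splicing and paraspeckles that also takes part in the PER repressor complex, read 0.84 and 0.71 under CR and -0.52 and -0.79 under AL. Its rise of 1.43 ± 0.13 had the lowest adjusted p of all genes (0.0461, limma). The study also names Sfpq as activated by CR, from these animals among others, so its direction is not independent evidence. The CR and AL values were again apart. Both genes had a single probe. Under the alternatives the difference ranged from 0.91 to 1.48 for Dsel and from 1.10 to 1.63 for Sfpq.

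The calls depended on single libraries and on the processing. With the variance floor the adjusted p was 1 for both genes, and in the Cy3 channel alone it was 0.282 for Dsel and 0.332 for Sfpq. Dsel also lost its call without adjustment for the version (0.351), with the scanner's processed signals (0.101) and with arrays scaled to 1 SD (0.231) or to 1 median absolute value (0.235). Without the first CR ovary the adjusted p was 0.183 and 0.191 for Dsel and Sfpq, and without the second it was 0.323 and 0.211 (limma). Leaving out either AL ovary of 1 month gave 0.26 and 0.171, and with array version as a term of the fit the values were 0.24 and 0.167. Dsel also missed the threshold without either AL ovary of 24 months (0.122), without either AL ovary of 6 months (0.141) or without the first AL ovary of 16 months (0.12). In the 4 arrays of 16 months alone, with version as a block, Cyp2e1 and Scd1 were among the genes called (adjusted p = 0.0801 for each, limma), while Dsel and Sfpq had 0.135.

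**Figure D1:**
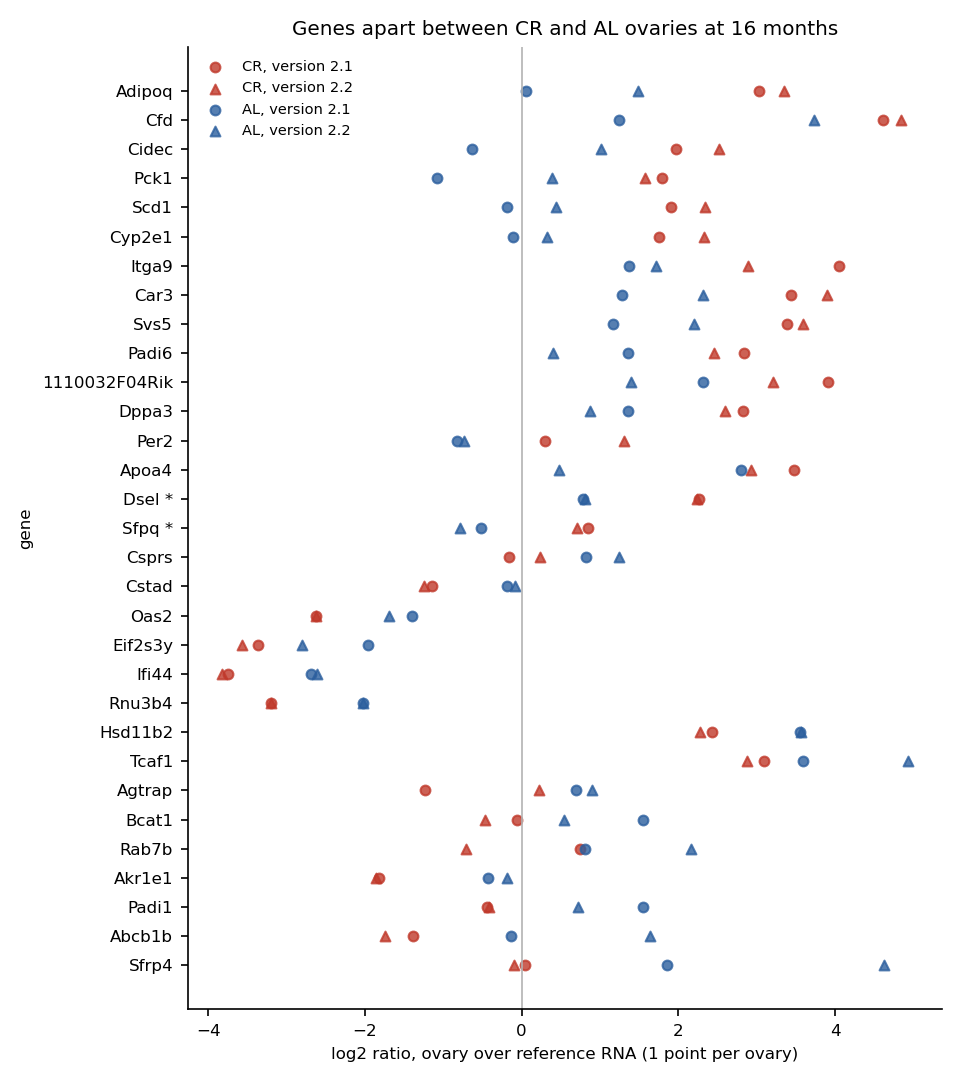
Log2 ratio of ovary to reference RNA (horizontal axis) of 2 called genes (Dsel and Sfpq, asterisk) and of the named genes with the largest differences among those at an unadjusted p under 0.05, with 1 point per ovary, red for CR and blue for AL, circles for array version 2.1 and triangles for 2.2. In every gene drawn both red points lie on 1 side of both blue points, a property used to choose them, and in Sfrp4 the blue points lie at 1.86 and 4.63 while the red lie at 0.05 and -0.10.

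Among named genes, 133 higher and 104 lower ones met the second naming rule (an unadjusted p under 0.05, at least 1.5-fold, the same direction within both array versions and no overlap); they are given by their values and not as changed. The genes given next were picked from those with the largest differences toward CR, and no theme was tested among them. Itga9, Svs5, Padi6, Dppa3 and Per2 are also in that group. Adipoq, the fat cell hormone adiponectin, read 3.03 and 3.35 under CR and 0.05 and 1.49 under AL. Cidec, which coats the single large lipid droplet of white fat cells, read 1.97 and 2.52 against -0.63 and 1.01, although its other probe differed by 0.13. Its difference of 2.05 was 0.95 without the first AL ovary and 3.15 without the second. Pck1, which makes glycerol for triglycerides in fat and glucose in liver, read 1.79 and 1.57 against -1.08 and 0.39. In all 3 genes the 4 ovaries fell in the same order of diets, and the first AL ovary was the lowest. Scd1, which desaturates fatty acids, read 1.90 and 2.34 against -0.19 and 0.44, and the microsomal oxidase Cyp2e1 1.76 and 2.33 against -0.11 and 0.32. The carbonic anhydrase Car3, abundant in fat and muscle, read 3.44 and 3.89 against 1.28 and 2.31; its difference of 1.87 was 0.54 at its other probe and 0.55 with the deposited values. Adjusted p-values of these 6 genes ranged from 0.363 to 0.369 (limma). Without the second AL ovary Adipoq and Pck1 were called, at 3.30 and 2.86 (adjusted p = 0.0883 and 0.0628, limma), where the narrow first AL array alone stood for AL, and without that array they were 1.55 and 1.18 (0.799 for both).

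The markers of fat cells as a list were higher under CR. Of 24 genes 23 were measured, 22 of them with a higher mean under CR, 7 of them at an unadjusted p under 0.05, and 14 with both CR above both AL ovaries (60.9% of the list against 23.5% of all genes). Their median difference was 0.27 beside -0.01 for all genes, 0.17 within version 2.1 and 0.38 within version 2.2, and 0.25 and 0.09 under the 2 scalings. Fabp4, the fatty acid carrier of fat cells, was the brightest gene with 42.8% of the list's signal and read 5.16 and 5.12 against 3.57 and 4.00; scaled to 1 median absolute value its difference of 1.35 became -0.62. The summed Cy3 signal of the list was 33700 and 50300 in the CR ovaries and 17800 and 21600 in the AL ovaries. Not all defining markers followed. Plin1, the coat protein of fat cell lipid droplets, was lowest in the first AL ovary (0.84) and highest in the second (2.38), with the CR ovaries between them and a difference of 0.02, and Lep (leptin) and Ucp1 lay near 0 in all 4. In whole ovaries, fewer cells of a type and less RNA per cell cannot be told apart, and the part of adjoining fat in these values was not tested; the study states that such fat was dissected away and that histology was used to check it. The study itself named 5 of the 23 (Adipoq, Fabp4, Pck1, Pnpla3 and Retn) for diet from these animals, which makes their direction no independent evidence.

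Genes of lipid synthesis did not move as a block. Thrsp, a regulator of lipogenic enzymes, read 1.80 and 2.09 under CR and 0.07 and 0.70 under AL, a difference of 1.56 ± 0.32 (adjusted p = 0.326, limma), and lay with Scd1 apart from the rest of the list. Of 17 measured genes of fatty acid and triglyceride synthesis 9 were higher, 2 of them at an unadjusted p under 0.05, with a median of 0.05. That median was -0.04 without the first AL ovary and 0.15 without the second. Fatty acid oxidation gave a median of 0.06 over 23 genes, 0.22 within version 2.1 and -0.11 within version 2.2, and -0.28 when scaled to 1 median absolute value. Its nuclear receptor Ppara read 2.88 and 2.17 against 1.21 and 2.09. Without the second AL ovary Thrsp and Ppara were called, at 2.02 and 1.42 (adjusted p = 0.0632 and 0.0994, limma), and without the first they were 1.10 and 0.32. For cholesterol synthesis 12 of 18 genes were lower, 2 at an unadjusted p under 0.05, with a median of -0.08. Sc5d, a late enzyme of that pathway, read 1.43 and 1.53 against 2.09 and 2.33, and Fdft1, the squalene synthase, 0.72 and 0.57 against 1.10 and 1.49. Neither pair of diets overlapped in these 2 enzymes, and the adjusted p-values were 0.316 and 0.391 (limma). Over the cholesterol list both CR lay below both AL ovaries in 38.9% of genes against 26% of all genes, and above both in 5.56% against 23.5%. Without the second AL ovary the median of the cholesterol genes was 0.07.

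Oocyte genes were higher under CR within both array versions. The study also reports a slower decline of many oocyte genes under CR, from these animals among others. It names Oog1, Oog3, Oog4, Zp2, Zp3, Nlrp5 (as Nalp5), Gdf9 and Nobox (as Og2x) there, so the direction is not independent evidence. By its own thresholds the difference was not significant for these genes. It reports a significantly positive average log ratio over a set of known oocyte genes. All 35 genes of the list were measured, 30 had a higher mean under CR, 9 were higher and 0 lower at an unadjusted p under 0.05, and none was called (limma). In 19 of them both CR ovaries lay above both AL ovaries (54.3% against 23.5% of all genes). The median difference was 0.25, with 0.25 within version 2.1 and 0.34 within version 2.2, and it was 0.21 and 0.14 under the 2 scalings. Without the second AL ovary it was 0.04, and without the first 0.45. Dppa3, a maternal factor that protects the methylation of the egg's genome, read 2.82 and 2.60 under CR and 1.36 and 0.87 under AL, and Nobox, a transcription factor of early oocytes, 1.48 and 1.26 against 0.57 and 0.23. Zp2, a protein of the zona pellucida around the egg, read 2.09 and 1.30 against 0.90 and 0.02. In each of the 3 the second AL ovary was the lowest and the first CR ovary the highest. Padi6, an enzyme-like protein of the egg's cytoplasmic lattices, read 2.84 and 2.45 against 1.36 and 0.39, though its other probe differed by 0.34, and Oog3 read 1.87 and 1.40 against 0.42 and 0.06. In the Cy3 channel alone the differences were smaller: 0.19 in place of 0.97 for Nobox, 0.64 in place of 1.60 for Dppa3, 0.39 in place of 1.40 for Oog3, and a median of 0.15 for the list.

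Other oocyte genes overlapped between diets. Gdf9, the growth factor by which the oocyte drives granulosa cells, read 4.49 and 2.90 under CR and 3.66 and 1.31 under AL, so that the arrays of version 2.1 were higher than those of version 2.2 in both diets. Bmp15, Figla, Mos and Ddx4 lay within 0.5 of the reference on every array, so the list includes defining genes near 0. The summed Cy3 signal of the oocyte list was 10400 and 9610 in the CR ovaries and 10900 and 6770 in the AL ovaries, with Obox1 the brightest gene at 19.5%, and on version 2.1 it was not higher under CR. Whether the ovaries differed in the number of follicles was not measured on these arrays.

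Granulosa cell genes divided. Nr5a2, the orphan receptor LRH-1 that granulosa cells need for ovulation, read 1.31 and 1.61 under CR and 0.71 and 0.29 under AL, a difference of 0.96 ± 0.19 (adjusted p = 0.316, limma) that was 0.12 in the Cy3 channel alone. Nr0b1 read 2.88 and 2.33 against 1.07 and 1.87, a difference of 1.13 that was 0.16 in the Cy3 channel alone, and Kitl, the ligand by which granulosa cells sustain oocytes, 0.27 and 0.89 against 0.08 and -0.54. The diets did not overlap in these 3 genes. Over the list both CR lay above both AL ovaries in 31.2% of genes against 23.5% of all genes, and below both in 18.8% against 26%. For the oestrogen receptor Esr2 the first CR ovary gave no value, and the second CR ovary read 3.57 against 2.55 and 2.02, a difference that was -0.20 when scaled to 1 median absolute value. Foxl2 and Inha were lower under CR by their means, with differences of -0.49 and -0.57. Of the 17 genes of the list 10 were higher, 4 higher and 1 lower at an unadjusted p under 0.05, and the median of 0.15 was -0.10 within version 2.1, 0.46 within version 2.2, and -0.05 and -0.63 under the 2 scalings. The summed Cy3 signal of the list was 86800 and 52700 in the CR ovaries and 136000 and 73700 in the AL ovaries, lower under CR within both versions, with Gja1 the brightest gene at 38.4%.

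Sfrp4, a secreted Wnt antagonist expressed in corpora lutea, showed the largest difference of all genes, at 0.05 and -0.10 under CR and 1.86 and 4.63 under AL. Both AL ovaries lay above both CR ovaries, yet they differed from each other by more than the first did from CR. The difference was -3.27 ± 0.83 (adjusted p = 0.363, limma), -4.73 without the first AL ovary, where it was called (adjusted p = 0.0913), and -1.81 without the second. Hsd11b2, which inactivates glucocorticoids, stood at 2.44 and 2.27 under CR and 3.55 and 3.56 under AL, a difference of -1.20 ± 0.18 (adjusted p = 0.316, limma). It was called without either AL ovary of 6 months (0.0854) or without the second AL ovary of 16 months (0.0894). Abcb1b, a drug efflux pump of steroid-making cells, read -1.39 and -1.75 against -0.14 and 1.63, but its other probe differed by -0.01. It was called, at -3.32, without the first AL ovary (adjusted p = 0.0392, limma) and was -1.31 without the second. Csprs read -0.16 and 0.24 against 0.82 and 1.24, with 3 of 3 other probes in the same direction. Further lower genes were Rnu3b4, a U3 small nucleolar RNA, at -3.20 and -3.20 against -2.03 and -2.02, and Eif2s3y, at -3.36 and -3.57 against -1.97 and -2.80. Eif2s3y is Y-linked and females carry no copy, so its values do not measure expression, and its difference was 0.10 in the Cy3 channel alone and 0.01 scaled to 1 median absolute value. Under that scaling the difference of Rnu3b4 was -0.04. Rnu3b4 was called without either AL ovary of 24 months (adjusted p = 0.0232, limma).

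Luteal and steroid-synthesis genes were lower under CR by their means, mainly through the second AL ovary. All 9 measured genes of the corpus luteum list of 10 were lower, 1 of them (Sfrp4) at an unadjusted p under 0.05, with a median of -0.31 that was 0.05 within version 2.1, -0.63 within version 2.2 and -0.05 without the second AL ovary, and -0.67 and -1.77 under the scalings to 1 SD and to 1 median absolute value. Akr1c18, which breaks down progesterone as corpora lutea regress, read 0.53 and 0.11 under CR and 0.48 and 2.15 under AL, and Lhcgr, the receptor for luteinising hormone, 1.29 and 1.52 against 0.86 and 2.57. Cyp11a1, the first enzyme of steroid synthesis, read 3.04 and 2.90 against 2.72 and 3.99. In these 3 genes only the second AL ovary stood apart, above the other 3, and the diets overlapped. Scarb1, which takes up cholesterol esters, read 2.17 and 2.69 against 2.91 and 3.31 without overlap, though its other probe differed by 0.00. Of 14 measured genes of the theca and steroid list 12 were lower and 0 passed an unadjusted p of 0.05 (limma), with a median of -0.26 (-0.48 and -0.997 under the scalings). Lhcgr, Akr1c18, Star, Cyp11a1, Hsd3b1 and Scarb1 are in both lists, so the 2 counts are not separate. Both CR lay below both AL ovaries in 22.2% of luteal and 28.6% of theca and steroid genes against 26% of all genes. They lay above both in 0% of each list against 23.5%. The summed signal of the luteal list was 55600 and 46300 in the CR and 51000 and 92100 in the AL ovaries, with Hsd3b1 the brightest at 62.8%. Only the second AL ovary was high, and the phase of the ovarian cycle at death, which the labels do not give, was not tested.

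Interferon response genes were lower under CR. Of 23 genes 18 were measured, 16 were lower, 6 of them at an unadjusted p under 0.05, and none was called (limma). In 13 of the 18 both CR ovaries lay below both AL ovaries (72.2% against 26% of all genes), and in 0 above both. The median difference was -0.49, -0.32 within version 2.1 and -0.50 within version 2.2, and it ranged from -0.57 to -0.12 over all alternatives, the last with arrays scaled to 1 median absolute value. Type I interferons induce genes that block viral replication. Rsad2, the antiviral enzyme viperin, read -0.38 and -0.48 under CR and -0.16 and -0.11 under AL. Its difference of -0.30 was -0.05 in the Cy3 channel alone. Oas2 and Oas1a make the oligoadenylates that activate RNase L; Oas1a read -1.42 and -1.24 against -0.69 and -0.87. Ifi44 read -3.74 and -3.83 against -2.69 and -2.61, a difference of -1.13 that was 0.08 when scaled to 1 median absolute value. Isg15, a ubiquitin-like protein, read -2.04 and -1.60 against -1.32 and -1.17. Cxcl10 and Irf7 were the 2 members with a higher mean under CR. The summed signal of the list was 8160 and 6090 in the CR and 9730 and 8890 in the AL ovaries, with Bst2 the brightest at 28%.

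Promoters of these genes are shown because the members were lower together and carry a known element. In the RefSeq promoter table (GRCm38.p6, all promoters of the same length) 13 of the 18 measured genes had an entry, and 9 of the 13 (69.2%) held GAAA, any 2 bases and GAAA on either strand, beside 3.99% of 27025 genes. This is the core of the interferon-stimulated response element, and a match is a description and not a site. Of the 9 genes with a match 8 were lower under CR, and of the 4 without one 3 were. Capitals mark the matches, overlapping ones joined, and a match on the other strand reads TTTC, 2 bases and TTTC.
Isg15 promoter (chr4:156200769-156201068, minus strand): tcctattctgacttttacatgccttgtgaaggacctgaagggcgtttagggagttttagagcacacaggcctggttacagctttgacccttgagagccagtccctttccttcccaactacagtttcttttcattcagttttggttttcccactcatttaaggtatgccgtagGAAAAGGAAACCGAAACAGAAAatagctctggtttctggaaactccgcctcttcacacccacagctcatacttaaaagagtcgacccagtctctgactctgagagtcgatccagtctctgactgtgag
Ifit1 promoter (chr19:34640639-34640938, plus strand): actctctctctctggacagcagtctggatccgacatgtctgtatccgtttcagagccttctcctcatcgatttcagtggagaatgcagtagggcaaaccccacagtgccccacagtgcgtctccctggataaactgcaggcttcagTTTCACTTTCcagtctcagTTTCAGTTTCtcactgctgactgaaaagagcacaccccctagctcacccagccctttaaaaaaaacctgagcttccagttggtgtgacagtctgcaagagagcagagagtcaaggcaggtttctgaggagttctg
Ifit3 promoter (chr19:34583279-34583578, plus strand): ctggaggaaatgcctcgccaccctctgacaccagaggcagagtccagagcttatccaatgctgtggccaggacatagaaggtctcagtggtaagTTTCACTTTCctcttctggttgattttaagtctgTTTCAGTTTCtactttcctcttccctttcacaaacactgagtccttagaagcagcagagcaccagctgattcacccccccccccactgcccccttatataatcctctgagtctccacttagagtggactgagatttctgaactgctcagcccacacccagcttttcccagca
Oas1a promoter (chr5:120907476-120907775, minus strand): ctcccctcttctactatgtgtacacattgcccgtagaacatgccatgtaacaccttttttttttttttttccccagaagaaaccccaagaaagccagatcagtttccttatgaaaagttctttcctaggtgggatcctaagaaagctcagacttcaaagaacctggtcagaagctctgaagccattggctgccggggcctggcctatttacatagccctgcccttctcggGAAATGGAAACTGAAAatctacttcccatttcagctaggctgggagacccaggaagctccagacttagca
Rsad2 promoter (chr12:26456403-26456702, minus strand): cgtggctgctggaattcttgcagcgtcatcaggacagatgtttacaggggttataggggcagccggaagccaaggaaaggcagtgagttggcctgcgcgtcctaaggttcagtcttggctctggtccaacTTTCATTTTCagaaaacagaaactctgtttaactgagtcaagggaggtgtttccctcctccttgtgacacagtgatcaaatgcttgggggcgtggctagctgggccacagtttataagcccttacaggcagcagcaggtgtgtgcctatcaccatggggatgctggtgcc

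Clock genes were mostly higher under CR. In tissues the CLOCK and ARNTL pair drives the Per and Cry repressors, with the REV-ERB repressors in a second loop, and feeding time can set its phase; the CR mice were fed in the mornings and were not fed on their last day. Of 18 measured genes of 23, 15 were higher under CR, 3 of them at an unadjusted p under 0.05. Both CR lay above both AL ovaries in 8 (44.4% against 23.5% of all genes) and below in 3 (16.7% against 26%). The median was 0.13, 0.20 and 0.19 within the versions, 0.09 to 0.15 under the scalings and 0.05 without the first AL ovary. Per2 read 0.29 and 1.30 under CR and -0.82 and -0.73 under AL, a difference of 1.58 ± 0.38 (adjusted p = 0.362, limma), although its other probe differed by 0.05 and the difference was 1.02 without the second CR ovary and 2.13 without the first. Cry1 read 0.42 and 0.29 against 0.20 and -0.16, and Tef 2.21 and 1.93 against 1.25 and 1.74, a difference of 0.57 that was -0.21 when scaled to 1 median absolute value. The REV-ERB gene Nr1d1 went the other way, at -0.05 and -0.04 against 0.26 and 0.34, as did Dbp, at 0.42 and 0.50 against 0.85 and 0.77. The hour of death in relation to food was set by the diet group and cannot be told apart from the diet itself.

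The E-box letters CACGTG, which read the same on both strands and are bound by the CLOCK and ARNTL pair, were in the promoters of 4 of 13 clock genes with an entry (30.8%), beside 8.09% of 27025 genes. All 4 (Bhlhe41, Cry1, Per1 and Tef) had higher means under CR, although Tef was lower when scaled to 1 median absolute value, and of the 9 genes without the letters 3 were lower. Other lists were searched for other letters. The heat shock element (GAA, 2 bases, TTC, 2 bases and GAA, on either strand) was in 2 of 16 promoters of the heat shock list (12.5%, beside 0.662% of genes). These were the promoters of Hspd1 and Hspe1, which share their region and were lower while the list was higher. TAATTG was in 5 of 26 promoters of the oocyte list (19.2% beside 9.22%), all 5 of genes with higher means. Of the 21 oocyte genes without these letters only 4 were lower. A pair of clock promoters shows the E-box in capitals.
Cry1 promoter (chr10:85185005-85185304, minus strand): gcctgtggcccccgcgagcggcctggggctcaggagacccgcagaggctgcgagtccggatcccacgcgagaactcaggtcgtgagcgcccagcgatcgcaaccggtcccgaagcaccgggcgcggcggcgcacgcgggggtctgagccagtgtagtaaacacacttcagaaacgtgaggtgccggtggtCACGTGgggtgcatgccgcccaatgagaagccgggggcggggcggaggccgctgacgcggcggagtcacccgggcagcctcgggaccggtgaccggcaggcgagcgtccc
Per1 promoter (chr11:69098699-69098998, plus strand): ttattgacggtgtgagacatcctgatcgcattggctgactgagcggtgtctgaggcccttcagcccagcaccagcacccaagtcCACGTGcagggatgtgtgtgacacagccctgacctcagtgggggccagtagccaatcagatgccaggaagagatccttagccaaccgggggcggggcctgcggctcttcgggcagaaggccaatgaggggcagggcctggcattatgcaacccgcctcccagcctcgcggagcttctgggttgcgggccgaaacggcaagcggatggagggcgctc

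Other hormone and stress responses moved less evenly. Of 20 measured genes of the glucocorticoid and fasting list 15 were higher, 2 higher and 1 lower at an unadjusted p under 0.05. Their median of 0.20 was 0.13 within version 2.1, 0.06 within version 2.2, 0.07 when scaled to 1 median absolute value and 0.05 without the first AL ovary. Tsc22d3 (GILZ), a direct target of the glucocorticoid receptor, read 2.04 and 2.00 under CR and 1.32 and 1.80 under AL, although scaled to 1 median absolute value its difference of 0.46 was -0.41, and without the second AL ovary it was called at 0.73 (adjusted p = 0.0883, limma), while without the first it was 0.20. Cebpb read 0.19 and 0.10 against 0.48 and 0.58. Neither gene overlapped between diets. Over this list both CR lay above both AL ovaries in 45% of genes against 23.5% of all genes, and below both in 15% against 26%. Among heat shock genes Hspa8, the constitutive HSP70 chaperone, read 0.06 and -0.36 against -1.14 and -0.92, and its partner Dnaja1 0.22 and -0.09 against -0.95 and -0.65. The inducible Hspa1a read 2.49 and 2.12 against 1.01 and 1.38, a difference of 1.11 that was 0.28 when scaled to 1 median absolute value. All 3 were apart in the same direction. Over the heat shock list both CR lay above both AL ovaries in 52.6% of genes against 23.5% of all genes, and below both in 15.8% against 26%. Of the 19 measured heat shock and unfolded protein genes 12 were higher, 3 at an unadjusted p under 0.05, with a median of 0.26 (0.40 within version 2.1 and 0.12 within version 2.2). Members of the endoplasmic reticulum divided, with Pdia4 and Calr lower by their means (-0.54 and -0.35) and Herpud1, Hspa5, Dnajb9 and Pdia6 higher (0.47, 0.33, 0.26 and 0.11), and the mitochondrial Hspd1 and Hspe1 had lower means.

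Nuclear genes of the mitochondrion had medians below 0, which turned positive under scaling to 1 median absolute value. Of 68 measured mitochondrial ribosomal genes 53 were lower, 4 of them at an unadjusted p under 0.05 (5.88% against 6.08% of all genes). Both CR lay below both AL ovaries in 36 (52.9% against 26% of all genes). The median was -0.09 (-0.07 within version 2.1 and -0.13 within version 2.2). That median was -0.06 with arrays scaled to 1 SD and turned to 0.16 when scaled to 1 median absolute value. Mrpl54 read -1.54 and -1.58 under CR and -1.12 and -1.08 under AL, without overlap, and its difference of -0.46 became 0.18 under that scaling. Of 70 electron transport genes 45 were lower, 9 lower (12.9% against 6.08% of all genes) and 1 higher at an unadjusted p under 0.05. Both CR lay below both AL ovaries in 36.2% of them against 26% of all genes. The median of -0.06 was -0.00 within version 2.1, -0.13 within version 2.2, and 0.01 and 0.19 under the 2 scalings. Sdhb, the iron-sulfur subunit of complex II, read -0.16 and 0.13 against 0.55 and 0.96, a difference of -0.77 ± 0.14 (adjusted p = 0.316, limma). It kept its sign in every alternative, from -1.04 to -0.53, and limma called it in the Cy3 channel alone (adjusted p = 0.0212), with arrays scaled to 1 median absolute value (0.0374) and without the first AL ovary (-1.01, 0.0913), while without the second it was -0.53 (0.144). Cytosolic ribosomal genes had a median of 0.03, with 41 of 71 higher, 7 higher and 1 lower at an unadjusted p under 0.05, and a median of -0.02 and -0.15 under the scalings; Rpl14 read -1.13 and -0.98 against -1.52 and -1.54, but its other probe differed by -0.42 and the deposited values by -0.36.

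Immune cell genes gave no single direction. Macrophage genes had a median of 0.31, with 19 of 25 higher and 1 at an unadjusted p under 0.05, but the median was -0.03 within version 2.1, 0.24 within version 2.2, -0.28 without the second CR ovary and 0.66 without the first, and 0.17 and 0.03 under the scalings to 1 SD and to 1 median absolute value. Ctss, the brightest gene of the list at 21.3%, read 0.32 and 2.42 under CR and -0.45 and 1.18 under AL, so both ovaries on version 2.2 lay above both on version 2.1. The summed signal of the list was 63900 and 166000 in the CR and 60300 and 81600 in the AL ovaries, and the second CR ovary was the highest. Among mast cell genes, Cma1, a chymase of mast cell granules, read 0.03 and 0.05 under CR and 1.15 and 0.87 under AL, and Cpa3 0.46 and 0.05 against 0.74 and 0.79, both without overlap. Over the mast cell list both CR lay below both AL ovaries in 58.3% of genes against 26% of all genes, and above both in 16.7% against 23.5%. Cma1 had a difference of -0.97 ± 0.13 (adjusted p = 0.299, limma), and without the second AL ovary it was called at -1.12 (0.0424), against -0.83 without the first. The related protease Mcpt4 and the receptor Kit, which oocytes also express, were higher by their means, Kit being called at 1.89 without the second AL ovary (adjusted p = 0.0849, limma), 0.36 without the first and lower when scaled to 1 median absolute value, and of the 12 mast cell genes 8 were lower, 2 lower and 2 higher at an unadjusted p under 0.05, with a median of -0.11 (0.01 in the Cy3 channel alone).

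**Figure D2:**
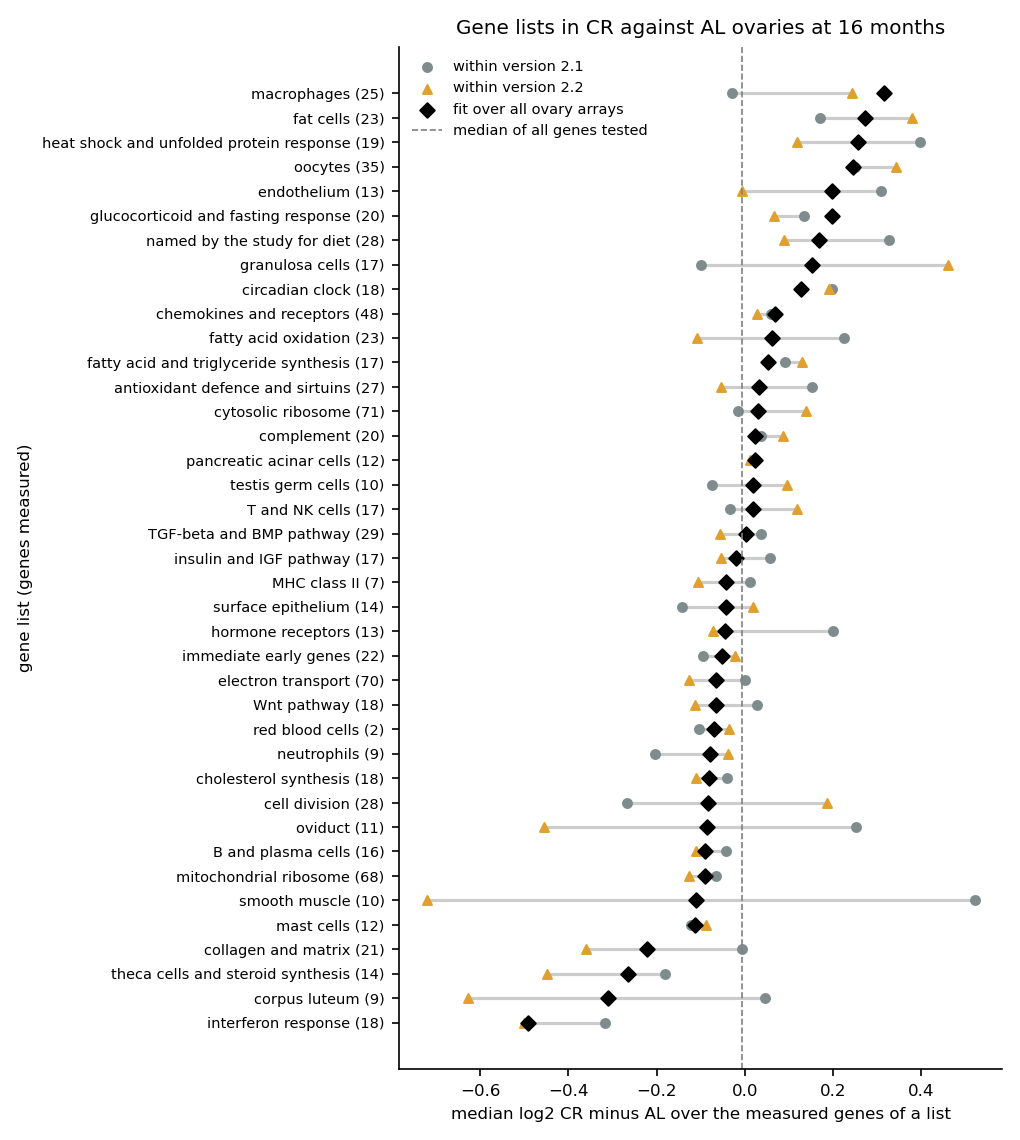
Median log2 difference CR minus AL (horizontal axis) of each of the gene lists, with the number of genes measured in brackets, as the fit over all ovary arrays (black diamonds) and within each array version (grey circles and orange triangles, 1 CR and 1 AL ovary each); the dashed line is the median of all genes, -0.01. Fat cell and oocyte genes lie right of the line and interferon genes left of it within both versions, while smooth muscle genes lie at 0.52 within version 2.1 and -0.72 within version 2.2.

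A list of 28 genes, not all of those that the study itself named for an effect of diet in the ovary, was chosen partly on these same animals, so their direction here is not independent evidence. All 28 were measured, 18 were higher, 7 higher and 4 lower at an unadjusted p under 0.05, and 0 of the 28 were called (limma); Sfpq, which the study names and the list leaves out, was called. The 7 were Adipoq, Fabp4, Pck1, Per2, Pnpla3, Retn and Scd1, and the 4 were Cma1, Csprs, Lefty1 and Sfrp4. Retn, the fat hormone resistin, read 0.67 and 1.34 under CR and -0.03 and 0.19 under AL. Lefty1, an antagonist of NODAL signalling, read 0.39 and -0.20 against 0.88 and 0.92. Dgat2, which makes triglycerides, read -0.39 and 0.25 against -0.86 and -0.60. None of these 3 overlapped between the diets. Over the 28 genes both CR lay above both AL ovaries in 35.7% against 23.5% of all genes, and below both in 21.4% against 26%. The median of the list was 0.17, with 0.33 and 0.09 within the versions and -0.01 when scaled to 1 median absolute value.

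The CR effect at 16 months was set against the mean of those at 6 and 24 months, which rest on other animals. No gene was called for this difference (limma, 0 of 35304, 0%), while 2404 were at an unadjusted p under 0.05 (6.81%), and the lowest adjusted p was 0.32. Without the second AL ovary of 16 months 56 genes were called, 16 without the first, and 9 without the first CR ovary of 6 months. Dsel had a CR effect of 1.46 at 16 months beside -0.15 at 6 and -0.08 at 24 months (difference 1.57 ± 0.20, adjusted p = 0.32, limma). Sfpq was higher under CR at all 3 ages, by 1.43 at 16 months, 0.69 at 6 months and 0.59 at 24 months. Per2 had nearly equal effects of 1.58, 1.65 and 1.56. Over 14547 named genes the effects at 16 and 6 months correlated with a Pearson r of 0.393, across genes that are not independent replicates, and those at 16 and 24 months with 0.0242.

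Gene groups differed in how the ages compared, without a test of a list. The median of the oocyte genes was 0.25 at 16 months, -0.06 at 6 months and 0.10 at 24 months. Fat cell genes had 0.27 beside 0.11 and 0.48, and Scd1 went by 2.00, 0.96 and 2.87 in the same order. Interferon genes had -0.49, -0.55 and -0.17, and 18 of 18 were lower by their means at 6 months, 17 at 24 months. Luteal genes had -0.31 at 16 months, -0.34 at 24 months and -0.89 at 6 months, where Sfrp4 differed by -3.75 and Akr1c18 by -3.69. Mitochondrial ribosomal genes had -0.09, -0.27 and -0.04, and those of electron transport -0.06, -0.27 and 0.08; both turn positive at 16 months when scaled to 1 median absolute value. Macrophage genes had 0.31 at 16 months, -0.00 at 6 months and -0.73 at 24 months, where 23 of 25 were lower; Gpnmb differed by 0.44 and -3.26. For single genes, and not for list medians, the SD over genes of the difference between the 2 animals of a group was 0.252 for CR and 0.271 for AL at 16 months and 0.237 to 0.373 in the other groups, the widest for CR at 24 months.

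**Figure D3:**
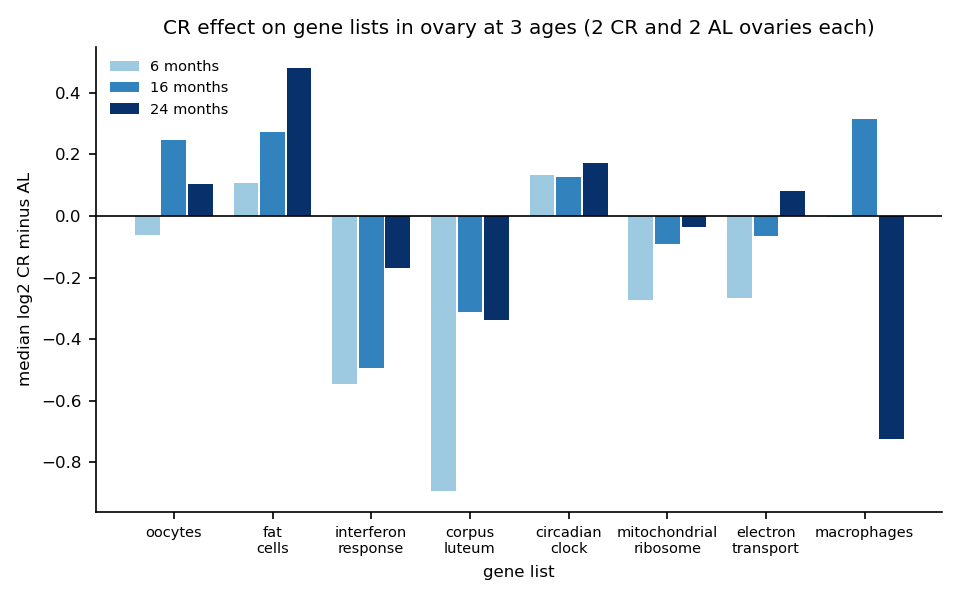
Median log2 difference CR minus AL (vertical axis) of selected gene lists at 6, 16 and 24 months (light to dark bars), each from 2 CR and 2 AL ovaries of other animals. Oocyte genes are at -0.06, 0.25 and 0.10 and interferon genes at -0.55, -0.49 and -0.17, while the bars of both mitochondrial lists at 16 months turn positive with arrays scaled to 1 median absolute value.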

How the data were processed

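Spot intensities of both channels were deposited per array by the authors as mean and local background values from Agilent Feature Extraction. The authors also deposited log10 values per probe, normalised in their own software, with medians from 2.992 to 3.055 over the 14 ovary columns; the 14 testis columns were not used here. From the mean and background intensities, limma 3.58.1 (R 4.3.3 and its package data.table, version 1.17.8) subtracted background (normexp, offset 50), normalised within arrays (loess, control spots at weight 0) and gave log2 Cy3 over Cy5. Control and outlier spots were left out, probes were matched between versions by sequence (38270), and version 2.1 was shifted per probe by its median difference from version 2.2 over 6 groups. A gene took its brightest probe, and 20757 probes without a gene name stood alone. limma fitted the 7 groups of 14 ovary arrays (7 residual degrees of freedom) with Benjamini-Hochberg adjustment; called genes had an adjusted p of at most 0.1 and at least 1.5-fold. The steps were tested on simulated data. Figures used Python 3.11.15, numpy 2.4.6 and matplotlib 3.10.9.

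On the 16-month arrays 98.4% to 99.7% of spots were well above background in Cy3, and the number of arrays limits the precision. The named genes were those called, the 15 with the largest difference per direction under the second rule, up to 4 per gene list and 28 genes the study names; list members outside this rule (among them Inha, Foxl2, Hsd3b1, Amh, Fshr, Zp2, Gdf9, Bmp15, Figla, Mos, Ddx4, Plin1, Lep, Ucp1, Isg15, Cxcl10, Irf7, Nr1d1, Dbp, Ctss, Gpnmb, Calr, Herpud1, Hspa5, Dnajb9, Pdia6, Hspd1 and Hspe1) were chosen after their values were seen. Some genes, 1 of the 3 called ones among them, are not reported here. Members and gene lists were chosen with earlier results of these data known. Alternatives were the scanner's processed signals, the deposited values, Cy3 alone, a filter on dim probes, version as a block or no version adjustment, a variance floor, 4 or 12 arrays, other probe choices, exclusion of genes with opposite CR effects at another age, and leaving out each array; 2 scalings were chosen after seeing the data. Promoters are from RefSeq.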

Additional observations from a re-analysis of the deposited data

How the results depend on the processing

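The count of 3 called genes for CR against AL at 16 months became 5 with the deposited values (2 higher and 3 lower, with 2 of the 3 kept), 0 with array version as a block, 1 without adjustment for the version (Sfpq), 0 with a variance floor without moderation, 0 with the 12 arrays of 6 to 24 months and 5 with log ratios scaled to 1 median absolute value (1 higher and 4 lower). Leaving out single arrays gave 0 to 302. At an unadjusted p under 0.05 limma had 2959 genes with the block, 820 with the floor and 3621 with the 12 arrays. The count was 2 with the scanner's processed signals and 2 in the Cy3 channel alone, where none of the 3 genes was kept, and 2 with arrays scaled to 1 SD. It stayed at 3 with the filter on dim probes, the lowest-p probe and every probe apart. The 3 calls also remained among the 16339 genes left without those whose CR effect at another age was opposite and more than 1 part in 3 as large. There the adjusted p-values over all genes were kept, so the count could not rise. The labels hold no replicate numbers; the replicate block of 4 arrays, 1 pair per version, called 3 genes, 1 of them among the 3. For the CR effect at 16 months against that at 6 and 24 months 0 genes were called under the alternatives run for it other than leaving out single arrays, which did not include the 4 arrays or the exclusion of genes with opposite effects (383 to 3158 at an unadjusted p under 0.05, limma), and 0 to 56 without single arrays. The day on which the array images were extracted equals array version and could not be a block of its own. The cause was not tested for any of these changes.

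Without leaving out arrays, 2022 of 2386 recomputed values of the 184 named genes stayed within the spread and on their side of the threshold, 338 moved, 22 lost and 4 gained a call, and 108 values of 70 genes had the other sign. Of 507 list medians 437 stayed within the spread and 40, from 21 lists, had the other sign. Without single arrays the other sign was met in 39 of 2571 gene values and 38 of 546 list medians. The medians of oocytes, theca cells, corpus luteum, surface epithelium, fat cells, red blood cells, the circadian clock, the glucocorticoid response, the interferon response and heat shock kept their sign under the alternatives run for lists, which did not include the exclusion of genes with opposite effects. The low ratio of Cy3 signal to background, from 1.33 to 1.74 at the median, limits what dim probes can show.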

Other observations

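Further gene lists held no gene called by limma; their scaled medians are given for 1 median absolute value unless 1 SD is named. Collagen and matrix genes had a median of -0.22, with 16 of 21 lower, 4 lower and 1 higher at an unadjusted p under 0.05, but -0.01 within version 2.1 and 0.08 when scaled to 1 median absolute value. Endothelial genes had 0.20 (8 of 13 higher) and -0.32 under that scaling, with 1 higher and 1 lower at an unadjusted p under 0.05. Egfl7, with no value in the first CR ovary, read 2.26 in the second against 3.13 and 3.06, while Pecam1, higher by 0.52, was called at 0.97 without the second AL ovary (adjusted p = 0.0305, limma) and was 0.07 without the first. Smooth muscle genes had -0.11 (-0.46 scaled), surface epithelium -0.04 (-0.42) and oviduct genes -0.09 (-0.34). Both CR lay above both AL ovaries in 11.1%, 14.3% and 18.2% of their genes against 23.5% of all genes, and below both in 0%, 28.6% and 9.09% against 26%. The smooth muscle median was 0.36 without the second CR ovary, and the oviduct median was 0.30 without the second AL ovary. Red blood cell genes had -0.07 over the 2 measured of 7. Pancreatic acinar genes had 0.02, with 7 of 12 higher and 2 higher at an unadjusted p under 0.05, and Amy1 read 1.79 and 1.91 under CR and 0.71 and 1.20 under AL. Testis germ cell genes had 0.02 and were below 0 under both scalings (-0.00 for 1 SD and -0.08 for 1 median absolute value).

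Genes of cell division had a median of -0.08, with 18 of 28 lower and 3 lower at an unadjusted p under 0.05, and 0.18 and 1.07 under the 2 scalings; Mki67 and Foxm1 were called as lower without the second AL ovary, at -0.79 and -0.70 (adjusted p = 0.0933 and 0.0942, limma), and were -0.08 and -0.30 without the first and 0.04 each in the Cy3 channel alone. Immediate early genes had -0.05 (0.23 scaled to 1 median absolute value), insulin and IGF pathway genes -0.02 (-0.37), Wnt pathway genes -0.07 (-0.28) and antioxidant genes 0.03 (-0.07). Hormone receptors had -0.05 (-0.07), with 3 of 13 higher and 0 lower at an unadjusted p under 0.05 (23.1% against 4.82% of all genes). Their median was 0.21 without the second AL ovary. TGF-beta and BMP pathway genes had 0.00 (-0.01 scaled to 1 SD and -0.08), with 5 of 29 lower and 0 higher (17.2% against 6.08%). The insulin, Wnt, antioxidant and immediate early lists had 1, 1, 1 and 0 genes higher and 2, 2, 0 and 1 lower at that p. Igf1 read 1.35 and 1.71 under CR and 0.98 and 1.12 under AL, so the diets were apart, but its difference of 0.48 was -0.10 scaled to 1 median absolute value.

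Among immune lists, B and plasma cell genes had -0.09 (0.02 scaled to 1 median absolute value), T and NK cell genes 0.02 (-0.03 under that scaling), neutrophil genes -0.08 (-0.07), MHC class II genes -0.04 (-0.45), complement genes 0.02 (-0.03 scaled to 1 SD and -0.08) and chemokines with their receptors 0.07 (0.02). The MHC class II median was 0.23 without the second AL ovary. Of the 16 B and plasma cell genes 6 lay lower in both CR than in both AL ovaries (37.5% against 26% of all genes) and 2 higher. Tnfrsf17, a receptor of plasma cells, read -0.96 and -0.94 under CR and -0.45 and -0.46 under AL. Its difference of -0.50 was -0.05 in the Cy3 channel alone. Xbp1, which other secretory cells also express, read -0.06 and -0.12 against -0.84 and -0.51. The chemokine Ccl21a read 2.93 and 2.85 against 3.34 and 3.33, likewise apart.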
